A study of Homo sapiens with 45 samples.

Results

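The comparison described here sets azacytidine (azaC) directly against halofuginone (HF) in HAP1 cells of the AAVS1 genotype. Its members were chosen by label: the 3 AAVS1 libraries with azaC and the 3 AAVS1 libraries with HF, 6 of the 45 libraries of the series. HAP1 is a near-haploid human cell line that the labels give as a derivative of KBM-7. Cells received 5 uM azaC or 25 nM HF for 4 h, and the 3 untreated AAVS1 libraries serve below to give the direction of each response. All 9 share the AAVS1 genotype, which carries neither knockout and is named after a locus commonly cut as a neutral control. The labels do not say whether each line is 1 clone. Each agent was given at 1 dose and the doses differ, so every difference below is between these doses at this time. The same pair of treatments in RNF25 KO and GCN2 KO cells, with 3 libraries per group, is used where a difference between genotypes was tested. RNA was polyA RNA sequenced in bulk, and the labels call the libraries biological replicates without saying whether they came from separate cultures. A p-value here is thus set by how far libraries of a group lie apart, which may be technical, and lower expression per cell cannot be told apart from fewer expressing cells.

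Halofuginone blocks prolyl-tRNA synthetase, so that uncharged prolyl-tRNA accumulates and the kinase GCN2 is activated. GCN2 phosphorylates the initiation factor eIF2, which lowers general translation and favours translation of ATF4, the transcription factor at the head of the integrated stress response (ISR). ATF4 and its partners raise genes of amino acid uptake, amino acid synthesis, tRNA charging and feedback control. Azacytidine is a cytidine analogue used against myeloid malignancies, which cells build into both RNA and DNA and which traps cytosine methyltransferases. According to its title the study is about RNF25, a ubiquitin ligase, and its part in tolerance to mRNA damage by azaC and in curbing the ISR. The comparison asks how the transcript levels after an mRNA-damaging agent differ from those after an agent that acts through uncharged tRNA.

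The 6 libraries held 1284903 to 2009899 counts in genes, with a median of 34 to 50 counts per tested gene, and 6.02% to 6.62% of counts came from the mitochondrial genome. The GCN2 gene, EIF2AK4, averaged 51.5 ± 6.96 CPM (counts scaled to library size) in AAVS1 cells with azaC, 43.7 ± 6.73 CPM in AAVS1 cells with HF, 22.3 ± 5.39 CPM in GCN2 KO cells with azaC and 15.8 ± 1.52 CPM in GCN2 KO cells with HF (SD, n = 3 each). RNF25 had 0 to 7 counts in any library and checks nothing about the genotype. KBM-7 came from a chronic myeloid leukaemia, but the defining blood cell markers were mostly absent: of 14 haematopoietic markers 10 were at 0 in all 6 libraries and 1 was tested. The summed level of these 14 was 16.1 to 30.7 CPM with azaC and 20 to 24.1 CPM with HF. None of the tested epithelial (1 of 12), neural (3 of 12) or fibroblast (6 of 12) markers passed the test (1 neural gene at an unadjusted p under 0.05), and their summed levels overlapped between the treatments: 28.7 to 48 CPM with azaC and 26.6 to 50.4 CPM with HF for the epithelial list, 123 to 212 CPM with azaC and 124 to 166 CPM with HF for the neural list, and 398 to 466 CPM with azaC and 428 to 458 CPM with HF for the fibroblast list. The library of untreated AAVS1 replicate 2 and that of RNF25 KO azaC replicate 2 stand apart in the slope of their counts on GC content (-0.464 and 0.347 log2 units per 10% GC, against -0.168 to 0.121 in the 6 libraries), and results that rest on them are given without them where that ends a call.

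Genes of the stress response, amino acid uptake and amino acid synthesis, such as SESN2, TRIB3 and SLC7A11, were lower with azaC than with HF, and some chaperone and cholesterol genes, such as HSPA8 and HMGCS1, were higher. Of 11078 genes tested, 110 (0.993%) differed between the treatments at an adjusted p under 0.05, here "called" (edgeR quasi-likelihood test, Benjamini-Hochberg adjustment over all genes tested). With azaC, 34 genes (0.307%) were higher than with HF and 76 (0.686%) were lower. Differences are log2 values of azaC minus HF: those called ran from 0.60 to 4.41 (median 1.14) among the higher genes and from -0.48 to -3.30 (median -1.07) among the lower ones, and the median over all tested genes was -0.008. In 109 of the 110 called genes the values of the 3 azaC libraries did not overlap those of the 3 HF libraries, as was so for 15.8% of all tested genes. An unadjusted p under 0.05 was reached by 1047 genes. The replicate numbers pair the libraries (the check is given with the processing), and with the number as a block 254 genes were called. The fits without 1 library, here and below, did not use the block. Without 1 library the count was 59, 55 or 58 (azaC replicate 1, 2 or 3 left out) and 51, 51 or 116 (HF replicate 1, 2 or 3 left out).

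**Figure D1:**
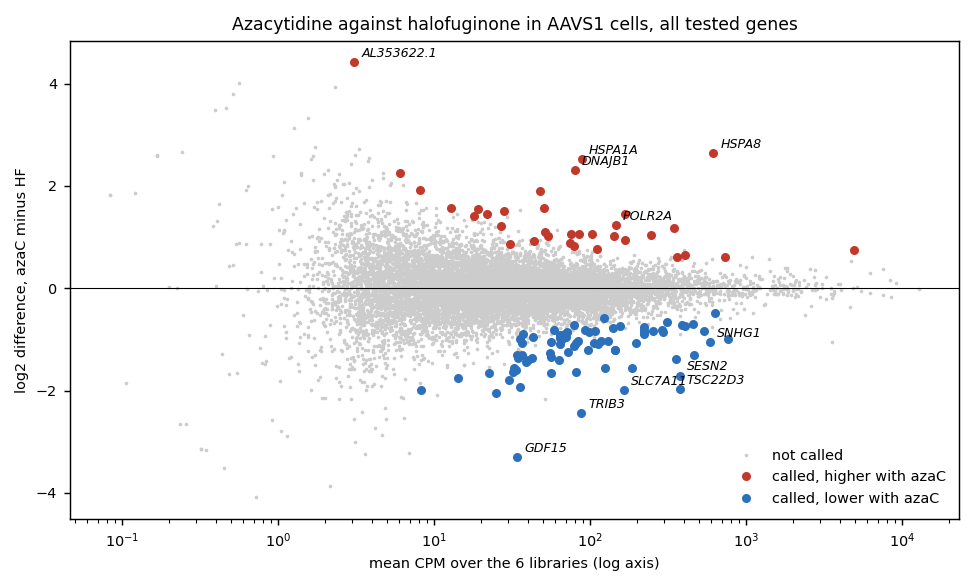
Each point is 1 of the 11078 tested genes, by its mean level over the 6 AAVS1 libraries (horizontal, CPM, log axis) and its log2 difference of azaC minus HF (vertical). Red points are the 34 called genes that were higher with azaC and blue points the 76 that were lower. Among the labelled genes HSPA8 (2.64) combines a large difference with a high level, as SESN2 (-1.71) does on the other side.

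The stress transcription factors divided into a group that differed between the agents and a group that did not pass the test. ATF4 itself had 745, 747 and 966 CPM with azaC and 812, 694 and 1042 CPM with HF, against 621, 453 and 577 CPM in untreated cells. The azaC and HF libraries overlapped, and the difference was -0.05 ± 0.19 (edgeR, adjusted p = 0.987). DDIT3 encodes CHOP, which promotes death under prolonged stress. It had 55.2, 65.1 and 70.3 CPM with azaC, 230.5, 151 and 182 CPM with HF and 23.2, 11 and 21.2 CPM without either. Every azaC library lay below every HF library and above every untreated one, and azaC minus HF was -1.56 ± 0.26 (edgeR, adjusted p = 0.000224). Exons on the opposite strand overlap 31.6% of the exon bases of DDIT3, and the strand setting of the counting is not given in the sources used here.

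Of 12 tested members of the list of ISR transcription factors, 0 were higher and 4 lower with azaC, with a list median of -1.22 (6 lower with the replicate block). The other 3 that were called are CEBPB (-1.40, edgeR adjusted p = 0.0035), CEBPG (-1.40, adjusted p = 0.000502), both of which code for dimer partners of ATF4, and JDP2 (-1.64, adjusted p = 0.00793), a bZIP repressor. CEBPB averaged 35 ± 5.13 CPM with azaC, 92.7 ± 18.4 CPM with HF and 9.1 ± 5.07 CPM in untreated cells (SD, n = 3 each). CEBPG did not show that order: it averaged 21.9 ± 5.71 CPM with azaC, 58.4 ± 18.1 CPM with HF and 26.9 ± 6.15 CPM in untreated cells. ATF3, an early stress repressor and activator, was at 46.5, 74.1 and 62.1 CPM with azaC, 136, 86.8 and 72.4 CPM with HF and 1.72, 10.5 and 12.2 CPM in untreated cells. The lowest HF library was within the azaC range, and its difference of -0.67 ± 0.36 did not pass the test (edgeR, adjusted p = 0.587). The call for JDP2 was lost without azaC replicate 1 (adjusted p = 0.0594) or 3 (0.0962).

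**Figure D2:**
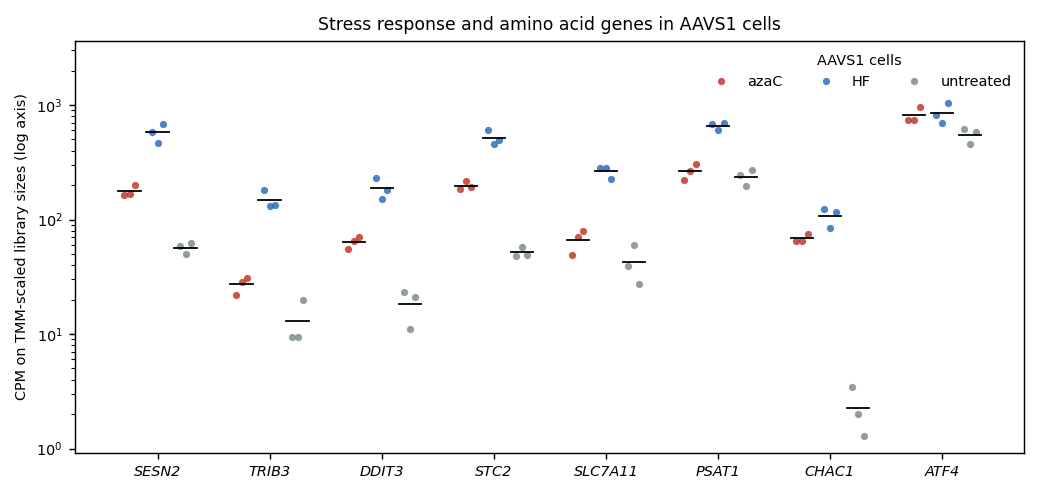
Level of 8 stress and amino acid genes in each AAVS1 library (vertical, CPM on TMM-scaled library sizes, log axis), with azaC in red, HF in blue and untreated cells in grey. Points are libraries and bars the mean of 3. For SESN2, TRIB3, DDIT3, STC2, SLC7A11 and PSAT1 all azaC points lie below all HF points, whereas those of ATF4 overlap.

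Genes that feed back on the ISR or restrain mTORC1, the kinase complex that couples growth to amino acids, were lower with azaC where they were called. SESN2 encodes a leucine sensor that inhibits mTORC1. It had 162, 168 and 201 CPM with azaC, 585, 469 and 688 CPM with HF and 58.5, 49.9 and 62.3 CPM in untreated cells. The 3 groups did not overlap, the mean with HF was 3.27 times that with azaC, and azaC minus HF was -1.71 ± 0.17 (edgeR, adjusted p = 2.28e-09). TRIB3, a pseudokinase that restrains ATF4, had 21.8, 28.8 and 30.7 CPM with azaC, 181, 132 and 134 CPM with HF and 9.47, 9.48 and 19.9 CPM in untreated cells. All azaC libraries were below all HF libraries by a wide margin and just above the untreated ones (-2.45 ± 0.30, 5.5 times as much with HF, adjusted p = 9.41e-07).

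In the list of 14 tested feedback and mTORC1 genes, 0 were higher and 4 lower with azaC, at a list median of -0.39 (6 lower with the replicate block). DDIT4, an mTORC1 inhibitor also called REDD1, averaged 88 ± 12.6 CPM with azaC, 203 ± 41.7 CPM with HF and 11.4 ± 7.46 CPM in untreated cells (-1.21 ± 0.31, edgeR adjusted p = 0.0401). Opposite-strand exons overlap 41.2% of its exon bases. EIF4EBP1, which blocks cap-dependent initiation when mTORC1 is inactive, differed by -1.25 ± 0.33 (adjusted p = 0.0451). With the replicate block both were called (edgeR, adjusted p = 0.0014 for DDIT4 and 0.00577 for EIF4EBP1). Without the block, each call was lost in 5 of the 6 fits that left out 1 library. That for DDIT4 was lost without azaC replicate 1 (adjusted p = 0.0832), 2 (0.18) or 3 (0.159) and without HF replicate 1 (0.277) or 2 (0.0896). EIF4EBP1 lost its call without azaC replicate 1 (0.267) or 2 (0.23) and without HF replicate 1 (0.107), 2 (0.222) or 3 (0.0589). Accordingly the list's count fell to 2 without azaC replicate 2, HF replicate 1 or HF replicate 2. PPP1R15A, the stress-induced subunit of the eIF2 phosphatase, had 36.4, 11.1 and 16.4 CPM with azaC and 75.3, 33 and 36.5 CPM with HF. These ranges overlap, and the difference of -1.19 ± 0.37 was not called (edgeR, adjusted p = 0.13) but was with the replicate block (adjusted p = 0.0202) and without azaC replicate 1 (0.0267).

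Among targets for cystine and glutathione, 0 of 13 tested genes were higher and 3 lower with azaC, at a list median of -0.01. SLC7A11 encodes the cystine importer xCT. It had 48.7, 70.1 and 79.8 CPM with azaC, 283, 284 and 227 CPM with HF and 39.6, 59.9 and 27.6 CPM in untreated cells. The HF libraries were all far above the other 6, among which the azaC and untreated values overlapped (-1.99 ± 0.23, 4 times as much with HF, edgeR adjusted p = 1.66e-07). CTH, which makes cysteine from cystathionine, differed by -1.34 ± 0.28 (adjusted p = 0.00492; 0.056 without HF replicate 1), and SLC3A2, the heavy chain that carries xCT and other transporters to the membrane, by -0.70 ± 0.15 (adjusted p = 0.00793; 0.106 without azaC replicate 1 and 0.0942 without azaC replicate 2). CHAC1, which degrades glutathione, had the same direction and did not pass the test. It had 65.4, 64.6 and 75.1 CPM with azaC, 123, 83.7 and 116 CPM with HF and 3.44, 2 and 1.28 CPM in untreated cells. The azaC libraries were again all below the HF libraries, both far above the untreated cells, but the difference of -0.65 ± 0.40 was not called (edgeR, adjusted p = 0.674). It was called with the replicate block in the 6 libraries alone (0.0112), an alternative chosen after seeing the data. The NRF2 targets NQO1, HMOX1, GCLM and TXNRD1 had differences of -0.01, -0.001, 0.03 and -0.15, none called.

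Amino acid transporters were lower with azaC in 6 of 16 tested cases and higher in 0, at a list median of -0.44. Besides SLC7A11 and SLC3A2 these were SLC6A9, a glycine transporter (-2.05 ± 0.39, edgeR adjusted p = 0.00182), SLC1A4, a neutral amino acid exchanger (-1.92 ± 0.28, adjusted p = 1.89e-05), SLC7A1, the arginine and lysine importer (-1.21 ± 0.20, adjusted p = 0.000224), and SLC38A2, a neutral amino acid importer that answers to amino acid shortage (-1.07 ± 0.17, adjusted p = 0.000137). SLC1A4 was at 13.8, 13.1 and 17.7 CPM with azaC, 71.4, 53.2 and 45.7 CPM with HF and 21.5, 11 and 7.71 CPM in untreated cells. Its azaC and untreated ranges overlapped, and every HF library was above both. SLC7A1 had the same order of groups, at 80.7, 107 and 75.7 CPM with azaC, 216, 227 and 169.5 CPM with HF and 52.5, 101 and 78.3 CPM in untreated cells.

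Enzymes of amino acid and one-carbon synthesis were lower with azaC in 6 of 17 tested cases and higher in 0 (list median -0.43). The serine pathway gave 2 of them: PSAT1 differed by -1.31 ± 0.19 (edgeR, adjusted p = 1.99e-05) and PSPH, which releases serine, by -1.21 ± 0.24 (adjusted p = 0.00297). PSAT1, the transaminase of serine synthesis, had 223.2, 266 and 308 CPM with azaC, 679.8, 604 and 699.5 CPM with HF and 243, 196 and 272 CPM in untreated cells. With azaC its values overlapped those of untreated cells, and with HF all were higher. The mitochondrial folate enzymes MTHFD2 (-0.86, adjusted p = 0.000402) and SHMT2 (-0.73, adjusted p = 0.0452) and the alanine transaminase GPT2 (-1.55, adjusted p = 5.72e-05) were also lower with azaC. PCK2, the mitochondrial enzyme that makes phosphoenolpyruvate and the last of the 6, had 37.1, 35.3 and 47.1 CPM with azaC, 159, 112 and 100.1 CPM with HF and 10.3, 12 and 21.8 CPM in untreated cells, with no overlap between the 3 groups (-1.63 ± 0.23, adjusted p = 1.04e-05). Without single libraries SHMT2 lost its call in each of the 6 fits (adjusted p 0.0544 to 0.277) and PSPH in 2, without azaC replicate 2 (0.0562) and without HF replicate 1 (0.05). Both were called with the replicate block (edgeR, adjusted p = 0.015 for SHMT2 and 1.75e-05 for PSPH). The list's count was 4 without azaC replicate 2 or HF replicate 1. The asparagine synthetase ASNS, a classic ATF4 target, had 0 to 1.01 CPM in the 6 libraries and was not tested, nor was PYCR1.

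Cytosolic aminoacyl-tRNA synthetases, which charge tRNAs, were lower with azaC in 4 of 23 cases and higher in 0, with a list median of -0.31. GARS1 (glycine) had 257, 308 and 356 CPM with azaC and 559.5, 479 and 501 CPM with HF, with no overlap (-0.74 ± 0.17, edgeR adjusted p = 0.0115). AARS1 (alanine, -0.81, adjusted p = 0.0321), CARS1 (cysteine, -0.75, adjusted p = 0.0348) and SARS1 (serine, -0.71, adjusted p = 0.0337) are the others. The count depends on each library: it was 0 without azaC replicate 1 or HF replicate 1, 1 without azaC replicate 2, azaC replicate 3 or HF replicate 2, and 2 without HF replicate 3, whereas the replicate block gave 8. With the block these included GARS1 (edgeR, adjusted p = 0.000178), AARS1 (0.00602), CARS1 (0.00293) and SARS1 (0.00525). EPRS1, the synthetase that HF inhibits, had 182, 253 and 171 CPM with azaC and 282, 385 and 248 CPM with HF, overlapping ranges, and its difference of -0.59 ± 0.22 was called with the block (adjusted p = 0.021) and not without it (0.262).

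Secreted and other stress genes extended the list of genes lower with azaC. GDF15, a cytokine of cell stress, had the largest negative difference among called genes, with 7.27, 2.52 and 9.55 CPM with azaC, 69.1, 32.3 and 83.2 CPM with HF and 0.861, 0 and 3.21 CPM in untreated cells. The azaC libraries were all under the HF libraries, although HF replicate 2 was well below the other HF libraries (-3.30 ± 0.70, 9.54 times as much with HF, edgeR adjusted p = 0.00695; 0.0942 without azaC replicate 2). STC2, a secreted glycoprotein of calcium and phosphate balance, had 184, 215 and 192 CPM with azaC, 605, 454 and 493 CPM with HF and 48.2, 57.4 and 49.5 CPM in untreated cells. Like SESN2 and PCK2, it showed 3 groups without overlap, azaC in the middle (-1.39 ± 0.23, adjusted p = 0.000141). These are the called members among 4 tested of the secreted list (0 higher, 2 lower, median -1.44, 3 lower with the replicate block and 1 without azaC replicate 2). TSC22D3, or GILZ, a leucine zipper protein known from glucocorticoid responses, had 158, 128 and 173 CPM with azaC, 826, 477 and 500.2 CPM with HF and 94.7, 44.9 and 74.5 CPM in untreated cells. Its azaC values sat closer to those of untreated cells than to those with HF (-1.98 ± 0.27, adjusted p = 9e-06).

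Further genes among the 15 largest negative differences were LRRC8D, a subunit of the volume-regulated anion channel (-1.65, edgeR adjusted p = 1.89e-05), HHIP, a hedgehog antagonist (-1.79, adjusted p = 0.0122), LMO4, a LIM-domain transcription cofactor (-1.65, adjusted p = 0.0319), SYCP2L, a relative of a meiotic axis protein (-1.75, adjusted p = 0.0348), and FAM129A, now NIBAN1, a stress-responsive gene (-1.98, adjusted p = 0.0452). LRRC8D kept its call in every alternative. FAM129A is the called gene whose groups overlap, at 2.91, 5.55 and 0.682 CPM with azaC and 17.9, 17.8 and 4.62 CPM with HF: replicate 3 was the lowest of its group in both, and the call was lost without azaC replicate 1 or 3 or HF replicate 1 or 2 (adjusted p 0.166 to 0.307). The HHIP call was lost without azaC replicate 1 (0.0891) or 3 (0.104) or HF replicate 2 (0.192), that of LMO4 without azaC replicate 2 (0.178) or 3 (0.151) or HF replicate 1 (0.321), and that of SYCP2L in each of the 6 fits without 1 library (0.0589 to 0.21).

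Growth arrest and death genes gave 3 calls of 24 tested in the list of p53 targets and DNA damage (0 higher, 3 lower, median -0.34). GADD45A, which blocks the cycle after stress, had 21.1, 12.6 and 16.4 CPM with azaC, 51.2, 44.4 and 55 CPM with HF and 18.1, 7.98 and 8.35 CPM in untreated cells (-1.60 ± 0.35, edgeR adjusted p = 0.00858). The azaC libraries overlapped the untreated ones and not the HF ones. BTG1, an antiproliferative gene, differed by -1.04 ± 0.19 (adjusted p = 0.00124) and PMAIP1, or NOXA, a BH3-only death gene, by -1.08 ± 0.24 (adjusted p = 0.0109). PMAIP1 was the 1 called gene among 16 tested of the BCL2 and death receptor list (2 lower with the replicate block). CDKN1A, the p53 target p21, had 0.504 to 6.34 CPM and was not tested. The GADD45A call was lost without azaC replicate 2 (0.108) or 3 (0.0512), and that of PMAIP1 without azaC replicate 1 (0.0542) or 3 (0.107) or HF replicate 2 (0.0996). Accordingly 1 gene of the p53 list was called without azaC replicate 3 and 2 without azaC replicate 1, azaC replicate 2 or HF replicate 2.

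SNHG1, SNHG5 and ZFAS1, noncoding hosts of small nucleolar RNAs whose spliced RNAs are degraded when they are translated, were lower with azaC (0 higher and 3 lower of 28 tested in that list, median -0.09; 5 lower with the replicate block, 2 in each of the 6 fits without 1 library). SNHG1 had 296, 405 and 446 CPM with azaC, 836, 788 and 761 CPM with HF and 359.8, 396 and 371 CPM in untreated cells. Every HF library was above all others, and the azaC and untreated ranges overlapped (-1.06 ± 0.16, edgeR adjusted p = 4.88e-05). SNHG5 had 188, 168 and 189 CPM with azaC, 342, 332 and 304 CPM with HF and 194, 193 and 193 CPM in untreated cells. The azaC libraries were close to and just below the untreated ones, and the HF libraries were far above both (-0.84 ± 0.14, adjusted p = 0.000225). ZFAS1 differed by -0.83 ± 0.20 (adjusted p = 0.0314; 0.0549 to 0.183 in the 6 fits without 1 library, which all lost the call, and 4.58e-05 with the replicate block). Exons on the opposite strand overlap 26.1% of its exon bases. GAS5, another such host, differed by -0.53 ± 0.18 and was not called (adjusted p = 0.213; 0.0391 with the block), nor was SNHG12 (-0.52, adjusted p = 0.381).

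Single calls came from other lists. EIF2S2, the beta subunit of eIF2, was the 1 called gene among 17 eIF2 kinases and regulators (-0.48 ± 0.12, edgeR adjusted p = 0.0442), and the call was lost in each of the 6 fits without 1 library (0.0872 to 0.308). EIF2S2 was called with the replicate block (edgeR, adjusted p = 0.00999). BRCA1, a recombination repair gene, was the 1 called gene among 22 of crosslink repair (1 more, higher with azaC, was called with the replicate block) (-0.99 ± 0.22, adjusted p = 0.00881; 0.0502 without azaC replicate 1, 0.0903 without azaC replicate 3 and 0.121 without HF replicate 2). In the list of 22 endoplasmic reticulum stress genes 0 were higher and 2 lower with azaC (1 higher and 2 lower with the replicate block and with DESeq2): XBP1, a transcription factor of that response (-1.02 ± 0.25, adjusted p = 0.0277), and HERPUD1, which acts in protein disposal (-0.78 ± 0.19, adjusted p = 0.0277). HERPUD1 had 106, 100.4 and 104 CPM with azaC, 209.5, 146 and 178 CPM with HF and 64.5, 37.9 and 46.2 CPM in untreated cells, 3 ranges without overlap. Neither call held in every fit without 1 library: XBP1 lost its call without azaC replicate 1 (0.0775) or 3 (0.192) or HF replicate 1 (0.107) or 2 (0.103), and HERPUD1 without azaC replicate 1 (0.0944), 2 (0.127) or 3 (0.104) or HF replicate 1 (0.24) or 3 (0.0589). Both were called with the replicate block (edgeR, adjusted p = 0.000351 for XBP1 and 0.00228 for HERPUD1). The list's count of lower genes was 0 without azaC replicate 1, azaC replicate 3 or HF replicate 1 and 1 in the other fits without 1 library.

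HSPA8, DNAJB1, DNAJA1 and HSPA1A, chaperone genes of the cytosol, were higher with azaC than with HF. HSPA8, the constitutive HSP70 that folds new proteins, had 1181, 1114 and 906 CPM with azaC, 165, 140.1 and 208 CPM with HF and 1869, 1806 and 1261 CPM in untreated cells. The HF libraries were far below both other groups, and all azaC libraries were below all untreated ones (2.64 ± 0.25, a mean 6.24 times that with HF, edgeR adjusted p = 1.93e-09). DNAJB1, an HSP40 partner of HSP70, had 164, 137 and 97.6 CPM with azaC, 34.9, 23.4 and 23.1 CPM with HF and 233, 184 and 125 CPM in untreated cells. DNAJA1, another HSP40, had 264, 273 and 205 CPM with azaC, 81.5, 89.4 and 101 CPM with HF and 383, 363 and 265 CPM in untreated cells. In both, the HF libraries were all below the other 6 and the azaC and untreated ranges overlapped, with azaC minus HF at 2.30 ± 0.42 (adjusted p = 0.000716) for DNAJB1 and 1.45 ± 0.22 (adjusted p = 3.62e-05) for DNAJA1.

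The list of 19 heat shock genes had 4 members higher with azaC and 0 lower, at a median of 0.46 (6 higher with the replicate block). The fourth is HSPA1A, the inducible HSP70, with 203, 178 and 71 CPM with azaC, 43.5, 17.1 and 20 CPM with HF and 409.7, 371 and 134 CPM in untreated cells. Replicate 3 was well below replicates 1 and 2 with azaC and in untreated cells, and the azaC and HF libraries did not overlap (2.52 ± 0.57, edgeR adjusted p = 0.0124). Without the block, the call was lost without azaC replicate 1 (0.079) or 2 (0.0585) and without HF replicate 2 (0.126) or 3 (0.0737). HSPA1A was called with the replicate block (2.44 ± 0.29, edgeR adjusted p = 4.85e-08). HSPA1A is uncertain for a further reason, since reads of its near-identical copy HSPA1B, counted at 0 to 5.09 CPM in the 6 libraries, could be split between them. Other abundant chaperone genes had small differences: HSP90AA1 and HSP90AB1, the cytosolic HSP90 genes, differed by 0.24 and 0.16, HSPD1, a mitochondrial chaperonin, by 0.02 and HSPB1, a small heat shock protein, by 0.04, none of them called. BAG3, a cochaperone of HSP70, was higher by 1.11 and not called (adjusted p = 0.113).

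Cholesterol genes also stood higher with azaC, in 4 of 23 tested cases, with 0 lower and a list median of 0.34 (6 higher with the replicate block, and 1 without HF replicate 2). HMGCS1, an early enzyme of the mevalonate pathway, had 319.8, 332 and 343 CPM with azaC, 153, 156 and 174 CPM with HF and 336, 362 and 306 CPM in untreated cells. MSMO1, a sterol methyl oxidase, had 75.6, 84.2 and 68.9 CPM with azaC, 27.9, 16.5 and 31.8 CPM with HF and 93, 74.8 and 102 CPM in untreated cells. For both genes the azaC and untreated libraries overlapped and all HF libraries were lower, with differences of 1.04 ± 0.19 (edgeR, adjusted p = 0.00123) for HMGCS1 and 1.58 ± 0.32 (adjusted p = 0.00369) for MSMO1. The call for MSMO1 was lost without HF replicate 2 (0.0826). INSIG1, which holds back the sterol sensor, differed by 1.53 and was not called (adjusted p = 0.0755).

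**Figure D3:**
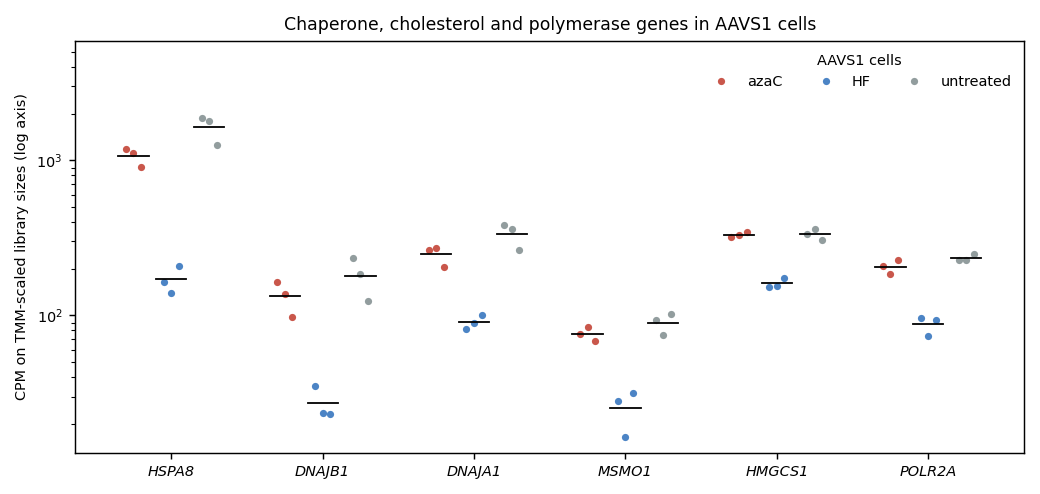
Level of 3 chaperone genes, 2 cholesterol genes and POLR2A in each AAVS1 library (vertical, CPM on TMM-scaled library sizes, log axis), with azaC in red, HF in blue and untreated cells in grey. Points are libraries and bars the mean of 3. In all 6 genes the HF points are the lowest, with every azaC point above every HF point.

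Other genes higher with azaC included POLR2A, the largest subunit of RNA polymerase II, with 209, 184 and 227 CPM with azaC, 97, 73.5 and 93 CPM with HF and 228, 226 and 249 CPM in untreated cells. HF libraries were again the low group, and azaC and untreated values overlapped (1.24 ± 0.17, edgeR adjusted p = 9e-06). Further genes among the 15 largest positive differences were less secure. KLHL21, an adaptor of a ubiquitin ligase (1.45, adjusted p = 0.00762), JMJD6, a nuclear oxygenase (1.51, adjusted p = 0.0226), PDP2, a pyruvate dehydrogenase phosphatase (1.58, adjusted p = 0.0276), MFSD2A, a lysolipid transporter (2.25, adjusted p = 0.0269), SLC35C1, a GDP-fucose transporter (1.91, adjusted p = 0.0348), CANT1, a nucleotidase (1.41, adjusted p = 0.0397), and UNKL, a zinc finger gene (1.54, adjusted p = 0.04), each lost the call without 3 to 5 of the 6 single libraries. GRWD1, a histone-binding ribosome assembly factor, was the 1 called gene among 30 of ribosome biogenesis (1.06 ± 0.27, adjusted p = 0.0359; 0.0502 to 0.191 in the 5 fits without 1 library that lost the call, and called only without HF replicate 3). AL353622.1, an unnamed transcript on chromosome 1, had 29 counts over the azaC libraries and 1 over the HF libraries. The depth-scaled ratio was 28.9, with an exact 95% interval of 4.8 to 1180 that covers counting error only, and the call (adjusted p = 0.0343) was lost in 5 of the 6 fits without 1 library.

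Sequences before the transcription starts are shown for genes of both main groups, because the ISR factors and the heat shock factor act through short elements there. Of the 110 called genes, 84 matched a RefSeq promoter window (GRCh38.p14, 250 bases before to 50 after a start). The motif TGATGNAA, the composite element bound by ATF4 with a CEBP partner, was searched on both strands. It was present in windows of 12 of 61 matched genes lower with azaC (19.7%) and 0 of 23 higher with azaC, against 2.74% of 8582 tested genes and 3.62% of all 35116 windows. A match is a description of letters and not a site. Of these 12 genes, CARS1 (match from position -2), FOXP1 (-43), NCOA7 (-4), SLC3A2 (38), SLC7A1 (8) and TBL1X (-48) are not shown. Positive positions lie after the start. Below, 6 of these 12 genes are shown with 30 bases to each side, in the gene's direction, with the match in capitals (read as its reverse complement where the motif lies on the other strand). The match starts at position -187 in AARS1 (chr16:70289656-70289723, minus strand), -33 in GARS1 (chr7:30594815-30594882, plus strand), -42 in CEBPG (chr19:33374041-33374108, plus strand), -16 in JDP2 (chr14:75427976-75428043, plus strand), -176 in HERPUD1 (chr16:56931936-56932003, plus strand) and -7 in SLC1A4 (chr2:64989362-64989429, plus strand), counted from the annotated start.
AARS1: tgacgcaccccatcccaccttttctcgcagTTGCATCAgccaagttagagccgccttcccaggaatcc
GARS1: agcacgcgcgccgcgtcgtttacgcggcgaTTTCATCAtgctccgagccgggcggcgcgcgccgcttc
CEBPG: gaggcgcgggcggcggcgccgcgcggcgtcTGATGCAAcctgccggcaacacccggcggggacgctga
JDP2: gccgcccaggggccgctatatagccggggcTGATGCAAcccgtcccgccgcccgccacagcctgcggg
HERPUD1: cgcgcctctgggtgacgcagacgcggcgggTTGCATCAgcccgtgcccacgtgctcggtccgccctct
SLC1A4: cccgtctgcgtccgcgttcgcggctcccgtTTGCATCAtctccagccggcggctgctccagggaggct

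The heat shock element, searched on both strands as GAA, any 2 bases, TTC, any 2 bases and GAA, was present in windows of 2 of 23 matched genes higher with azaC (8.7%, HSPA8 and DNAJA1) and 0 of 61 lower with azaC. It occurred in 0.466% of the 8582 tested genes and 0.49% of all windows. HSPA8, the called gene of highest level among the chaperones, holds 2 matches, at positions -230 and -55, shown in capitals in the 250 bases before its start (chr11:123062137-123062386, GRCh38.p14, minus strand). In DNAJA1 the match begins at position 4, just past the start. A sterol element, TCACNCCAC on either strand, was found in 0 of the 23 higher genes, in 3 of the 61 lower ones (FYN, NFE2L1 and SLC1A4) and in 1.32% of tested genes. A window without a match says only that these letters are not in it.
HSPA8: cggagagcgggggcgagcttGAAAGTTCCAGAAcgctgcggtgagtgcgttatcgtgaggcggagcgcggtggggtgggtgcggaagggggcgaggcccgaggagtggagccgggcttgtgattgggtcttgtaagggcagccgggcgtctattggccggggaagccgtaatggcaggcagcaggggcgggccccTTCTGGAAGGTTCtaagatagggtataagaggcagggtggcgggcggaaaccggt

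Many lists showed no call in this comparison. None of 11 tested genes of proline metabolism, 26 ribosome collision and quality control factors, 21 immediate early genes, 24 S phase and 21 G2 and M phase genes, 25 genes of azacytidine uptake, activation and targets, 17 autophagy and lysosome genes, 75 cytosolic ribosomal protein genes, 13 mitochondrial genome mRNAs or 9 interferon-stimulated genes was called by edgeR, DESeq2 or limma-voom, and 12 genes of these 10 lists had an unadjusted p under 0.05 in the edgeR test. Their medians ran from -0.16 in the S phase list to 0.18 in the proline list. With the replicate block 1 proline gene was called, lower with azaC. DNMT1, the maintenance DNA methyltransferase that azaC traps, had 370, 383 and 431 CPM with azaC and 514, 491 and 467 CPM with HF (-0.31 ± 0.19, adjusted p = 0.682). Its azaC libraries were all below the HF ones, a difference that did not pass the test. UCK2, the kinase that activates azaC, had overlapping values (0.32 ± 0.25, adjusted p = 0.795). ALDH18A1, the first enzyme of proline synthesis from glutamate, was at 103, 99.4 and 98.9 CPM with azaC and 73.7, 78 and 90.9 CPM with HF, ranges that did not overlap, with a difference that was not called (0.31 ± 0.22, adjusted p = 0.761). JUN (0.29, adjusted p = 0.955) and MYC (0.73, adjusted p = 0.934), both immediate early transcription factors, were not called, MYC at 0 to 9.08 CPM. TXNIP, an arrestin that restrains glucose uptake, differed by -0.91 ± 0.30 (adjusted p = 0.176; 0.0456 with the replicate block).

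**Figure D4:**
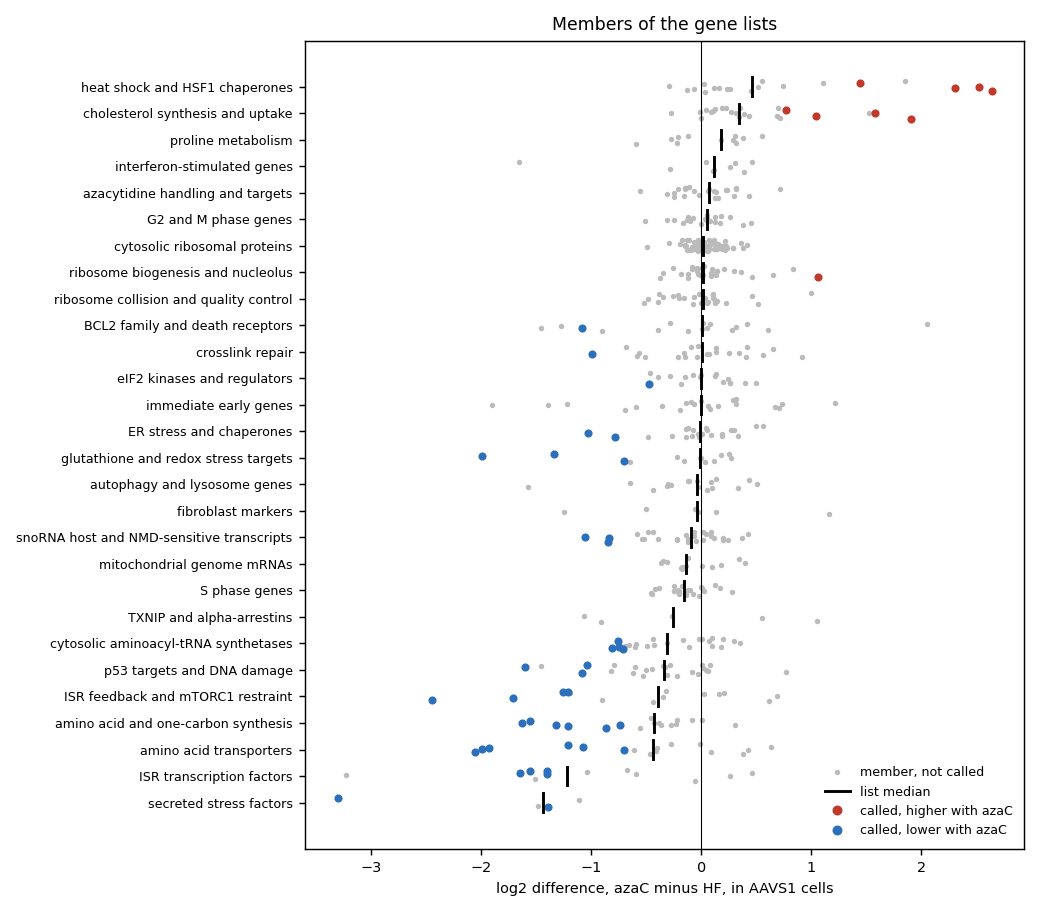
Log2 difference of azaC minus HF in AAVS1 cells (horizontal) for the tested members of each gene list with at least 4 such members, ordered by list median (black bars). Red points are called genes higher with azaC and blue points called genes lower with azaC. Heat shock (median 0.46) and cholesterol (0.34) lists are at the top, ISR transcription factors (-1.22) and secreted stress factors (-1.44) at the bottom.

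Against untreated cells, SESN2, STC2, DDIT3, DDIT4, PCK2, CHAC1 and ATF3 were higher with either agent, and 6 of 19 heat shock genes and 4 of 23 cholesterol genes were lower with HF. Both comparisons share the untreated libraries, so their values are only placed side by side. With azaC, 13 of 11078 genes were called against untreated cells (0.117%), all of them higher (0.117%), and 535 genes had an unadjusted p under 0.05. With HF, 171 were called (1.54%), 117 higher (1.06%) and 54 lower (0.487%). The replicate block gave 377 for HF, a count not to be set beside the 13 for azaC, which was found without the block. For azaC the block also added calls, given below. SESN2 was higher by 1.64 with azaC and 3.35 with HF (edgeR, adjusted p = 1e-07 with azaC and 4.59e-18 with HF). STC2 was higher by 1.93 with azaC and 3.31 with HF, DDIT3 by 1.82 with azaC and 3.38 with HF, DDIT4 by 3.04 with azaC and 4.25 with HF, and PCK2 by 1.42 with azaC and 3.05 with HF, all of them called with either agent. CHAC1 rose by 4.95 with azaC (adjusted p = 1.48e-06) and 5.60 with HF (adjusted p = 4.47e-09), and ATF3 by 2.81 with azaC (adjusted p = 0.000308) and 3.49 with HF (adjusted p = 3.94e-07). The other genes called with azaC were CEBPB (1.90), HERPUD1 (1.08) and PMAIP1 (1.36), with KRI1 of the ribosome biogenesis list and AC016831.5 and LINC00662, which are in no list. Without untreated replicate 2, the library that stands apart, 9 genes were called with azaC and 130 with HF. The azaC count was 22 without untreated replicate 3, and the HF count was 101 without HF replicate 1. The azaC calls were lost for PCK2 without untreated replicate 1 (0.0838) or 2 (0.116) or azaC replicate 3 (0.0568), for HERPUD1 without untreated replicate 2 (0.161), for PMAIP1 without untreated replicate 1 (0.13) or 3 (0.0708) or azaC replicate 2 (0.112), and for CEBPB with GC-corrected offsets (0.227). In a fit to the libraries compared alone, which called 4 genes, the azaC calls were also lost for ATF3 (0.152), DDIT3 (0.224), CEBPB (0.935), HERPUD1 (0.935), PCK2 (1) and PMAIP1 (1).

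Of 16 transporters, 0 were called by edgeR with azaC against untreated cells (3 at an unadjusted p under 0.05, 2 called by DESeq2 and 1 by limma-voom), and 7 rose with HF. Of 23 tRNA synthetases, 0 were called with azaC (4 at an unadjusted p under 0.05, 0 by DESeq2 and limma-voom), and 6 rose with HF. SLC7A11 was 0.63 above untreated cells with azaC (edgeR, adjusted p = 0.964) and 2.62 with HF (adjusted p = 6.64e-11). TRIB3 was 1.06 with azaC (adjusted p = 0.743), not called, and 3.51 with HF (adjusted p = 1.43e-10). PSAT1 was 0.17 with azaC (adjusted p = 0.99) and 1.48 with HF (adjusted p = 6.23e-07). TSC22D3 (adjusted p = 0.00178), SLC3A2 (0.0124) and SLC38A2 (0.0473) were called with azaC against untreated cells under the replicate block and not without it (0.157 for TSC22D3, 0.0859 for SLC3A2 and 0.151 for SLC38A2). ATF4 was 0.58 with azaC (adjusted p = 0.743) and 0.63 with HF (adjusted p = 0.0977; 0.00827 with the block).

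HSPA8 fell by 3.26 with HF (edgeR, adjusted p = 1.18e-12) and was -0.62 with azaC (adjusted p = 0.962). DNAJB1 fell by 2.74 with HF (adjusted p = 1.49e-05) and was -0.44 with azaC, not called. HMGCS1 fell by 1.06 with HF (adjusted p = 0.000434) and stood at -0.01 with azaC. POLR2A fell by 1.42 with HF (adjusted p = 8.74e-08) and was -0.18 with azaC (adjusted p = 0.99). With azaC 0 genes of the heat shock and cholesterol lists were called by edgeR, DESeq2 or limma-voom (5 heat shock and 2 cholesterol genes at an unadjusted p under 0.05). HSPA1A, at -1.01 with azaC (adjusted p = 0.99), was lower in azaC than in untreated cells in each of the 3 numbered pairs. It was called lower without the filter on low counts (adjusted p = 0.00133) and with the replicate block and GC-corrected offsets (0.00135), and not with the block alone (0.059).

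The shortfall of SESN2 with azaC was smaller in RNF25 KO than in AAVS1 cells, and those of TRIB3, SLC38A2 and SNHG1 were smaller or turned round in GCN2 KO cells. HSPA8 was higher with azaC in all 3 genotypes. In RNF25 KO cells 81 genes (0.731%) were called between azaC and HF, and in GCN2 KO cells 119 (1.07%). A difference between genotypes was tested as azaC minus HF in AAVS1 cells minus the same in the knockout. For AAVS1 minus RNF25 KO 1 gene was called (0.00903%; 371 at an unadjusted p under 0.05), which was SESN2. In RNF25 KO cells SESN2 had 470.2, 511 and 473 CPM with azaC and 552, 468 and 538 CPM with HF. These ranges overlap, unlike those of AAVS1 cells, and the RNF25 KO azaC libraries were all above the AAVS1 azaC libraries. The test of the difference gave -1.61 ± 0.23 (edgeR, adjusted p = 0.000157), called in every alternative including the fit without RNF25 KO azaC replicate 2. DDIT3 (-1.72 ± 0.36) and DDIT4 (-2.04 ± 0.43) came next and were not called (adjusted p = 0.0882 for each). Both were called by DESeq2 (0.00824 for DDIT3 and 0.0466 for DDIT4) and by limma-voom (0.0026 for DDIT3 and 0.00132 for DDIT4). DDIT3 had 137, 216 and 163 CPM with azaC and 159, 136 and 166 CPM with HF in RNF25 KO cells.

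For AAVS1 minus GCN2 KO 15 genes were called (0.135%), 1 higher and 14 lower, with 569 at an unadjusted p under 0.05. Those with the largest differences were TRIB3 (-2.64 ± 0.47, edgeR adjusted p = 0.00231), DDIT4 (-2.49 ± 0.55, adjusted p = 0.0352), SLC1A4 (-1.83 ± 0.40, adjusted p = 0.0332), GPT2 (-1.82 ± 0.34, adjusted p = 0.00559) and XBP1 (-1.68 ± 0.36, adjusted p = 0.0306). In GCN2 KO cells TRIB3 had 13.2, 22.8 and 15.2 CPM with azaC and 12.8, 13.5 and 18.4 CPM with HF, so that the treatments overlapped there. The count was 6 without AAVS1 azaC replicate 1, 8 without GCN2 KO azaC replicate 2 and 8 without AAVS1 HF replicate 1. TRIB3, SLC38A2, SNHG1, EIF5 and NDUFB9 kept the call in each of the 12 fits without 1 library. SLC38A2 had 112, 94.6 and 114 CPM with azaC and 66.6, 74.9 and 77.1 CPM with HF in GCN2 KO cells, the opposite order to AAVS1 cells, where it had 112.7, 131 and 139.9 CPM with azaC and 251.4, 309 and 246 CPM with HF. GPT2 lost its call without AAVS1 azaC replicate 2 (0.0521), and DDIT4, SLC1A4 and XBP1 each without 8 or more of the 12 single libraries. Of the other called genes, MAPK1IP1L lost its call in 10 of these fits (0.0584 to 0.122), TBL1X in 8 (0.0516 to 0.176), HERPUD1 in 6 (0.0523 to 0.187), SLC7A11 in 3 (0.0578 to 0.158), PSAT1 in 2 (0.0605 and 0.0695) and ANKRD11 in 1 (0.0587).

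EIF5, an activator of the eIF2 GTPase, and NDUFB9, a subunit of respiratory complex I, are named here after their values were seen, since they differ from the rest. EIF5 had 265, 272 and 247 CPM with azaC and 320.5, 297 and 291 CPM with HF in AAVS1 cells, and 249.5, 269 and 230.3 CPM with azaC and 92.8, 97 and 95.5 CPM with HF in GCN2 KO cells. Only the GCN2 KO libraries with HF were low among these 12 (difference between genotypes -1.60 ± 0.19, edgeR adjusted p = 1.81e-06). NDUFB9 had 445, 527 and 488 CPM with azaC and 123, 126 and 217 CPM with HF in GCN2 KO cells, and its azaC minus HF in AAVS1 cells was 0.09 (difference between genotypes -1.55 ± 0.24, adjusted p = 0.000261). Opposite-strand exons overlap 21% of its exon bases. SESN2 was lower with azaC than with HF in GCN2 KO cells too (-0.72, adjusted p = 0.0264), at 63.8, 95.1 and 56.3 CPM with azaC and 123, 91.5 and 142 CPM with HF, ranges that overlap. The difference between genotypes was -0.99 and not called by edgeR without the block (adjusted p = 0.096). It was called by edgeR with the replicate block (0.0254) and with the block and GC-corrected offsets (0.0209), and by DESeq2 (0.0182). The edgeR fits without GCN2 KO azaC replicate 3 (0.0379), AAVS1 HF replicate 2 (0.0478) or GCN2 KO HF replicate 3 (0.0424) called it too. DDIT3 was likewise lower with azaC than with HF in GCN2 KO cells (-1.52, edgeR adjusted p = 0.00293). Its difference between genotypes was -0.006 with the replicate block and was not called. No standard error is given for it, because the way it was computed is unreliable for a difference this small.

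HSPA8 was higher with azaC than with HF in each genotype, by 2.64 in AAVS1 cells, 2.43 in RNF25 KO cells (edgeR, adjusted p = 2.24e-08) and 2.63 in GCN2 KO cells (adjusted p = 1.9e-09). The differences between genotypes were 0.21 ± 0.34 against RNF25 KO and 0.01 ± 0.34 against GCN2 KO cells, neither called (adjusted p = 1 and 1). POLR2A was higher with azaC in RNF25 KO (0.73, adjusted p = 0.0256) and GCN2 KO cells (1.31, adjusted p = 1.99e-06) as well. HMGCS1 was higher by 1.04 in RNF25 KO cells (adjusted p = 0.0055), and in GCN2 KO cells its 0.68 did not pass (adjusted p = 0.069).

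**Figure D5:**
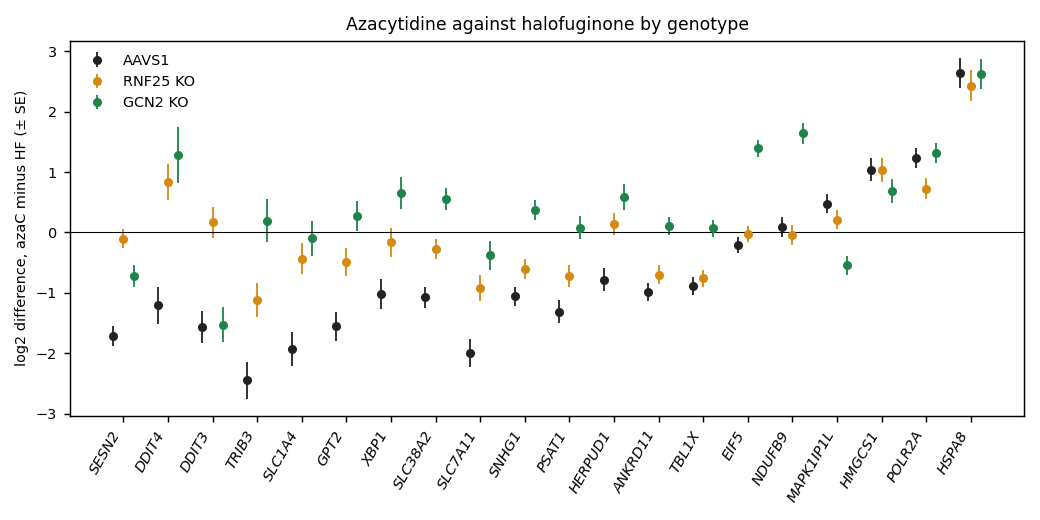
Log2 difference of azaC minus HF (vertical, ± SE of the fit, n = 3 libraries per group) in AAVS1 (black), RNF25 KO (orange) and GCN2 KO (green) cells for 20 genes. SESN2 is at -1.71 in AAVS1 cells and -0.10 in RNF25 KO cells, EIF5 and NDUFB9 are high in GCN2 KO cells alone, and HSPA8 is above 2 in all 3 genotypes.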

How the data were processed

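PolyA RNA of HAP1 cells was sequenced in bulk from libraries of a CORALL mRNA-Seq V2 kit (source: the labels' protocols). The deposited values are raw read counts per gene, one column per library, which the authors made with GRCh38, STAR 2.7.10b and HTSeq 0.9.1, as the submitters' processing notes name them. The sources used here do not state the annotation, the strandedness of the counting or whether molecular identifiers were used, so reads of overlapping genes cannot be told apart. No column was left unused (0). Of 60676 entries, 2862 had no symbol (0.0286% of counts), and 60357 were in the name table. Library totals of the 6 libraries were 1284903 to 2009899, which limits the precision for genes of few counts. Libraries were grouped by label. Within the azaC group and within the HF group of AAVS1 cells, no 2 libraries agreed within sampling noise. Other pairs of libraries were not compared in this way.

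The 11078 genes kept by filterByExpr (minimum count 10) were fitted with the edgeR 4.0.16 quasi-likelihood test in R 4.3.3, with TMM scaling, over all 45 libraries in 15 groups (30 residual degrees of freedom, common biological coefficient of variation 22.1%). Tests are two-sided with Benjamini-Hochberg adjustment over all genes tested, called under 0.05. Values are CPM on TMM-scaled library sizes, computed here. The spread of the fit includes untreated eS31 K113R libraries of which 2 carry another title. They were placed by the column name in their description. The script was tested on simulated data. Exon overlaps come from GENCODE release 29, which may not be the release the authors used, and promoter windows from RefSeq (GRCh38.p14).

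Replicate numbers come from the labels. The deviations of same-numbered azaC and HF libraries from their group means correlated at 0.134 to 0.277, those of azaC and untreated libraries at 0.138 to 0.327 and those of HF and untreated libraries at 0.105 to 0.289, so the numbers pair the libraries in these comparisons. Alternatives were DESeq2-style scaling, no filter, DESeq2 1.42.0, limma-voom (limma 3.58.1), GC-corrected offsets, the replicate block, only the libraries compared, and each library left out.

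The members and the 32 gene lists were chosen with earlier results of these data known. Genes named are the 15 largest called differences in each direction, called list members, a set of 24 list members given whatever their values, and the 5 largest differences called between genotypes. Values of 2 called genes that the rule would name are not reported here. INSIG1, BAG3, ASNS, HSPA1B, the HSP90 genes, HSPD1, HSPB1, the NRF2 targets and further genes called between genotypes were named outside this rule, after their values were seen.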

Additional observations from a re-analysis of the deposited data

Results flagged for a closer look

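Differences between genotypes that passed the test are listed here as AAVS1 minus knockout of the azaC minus HF difference (log2, edgeR, Benjamini-Hochberg adjustment), so that a negative value means that azaC lay lower relative to HF in AAVS1 cells than in the knockout. Against RNF25 KO cells the value was -1.61 for SESN2, the leucine sensor.

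Against GCN2 KO cells 15 genes passed. Those of the stress response were TRIB3 (-2.64), DDIT4 (-2.49), XBP1 (-1.68) and HERPUD1 (-1.37). Those of amino acid uptake and synthesis were SLC1A4 (-1.83), GPT2 (-1.82), SLC38A2 (-1.62), SLC7A11 (-1.62) and PSAT1 (-1.40). The snoRNA host SNHG1 was at -1.43, the chromatin gene ANKRD11 at -1.09, the corepressor gene TBL1X at -0.96 and MAPK1IP1L at 1.02. The calls for MAPK1IP1L and TBL1X were also lost without the filter on low counts (adjusted p = 0.441 for MAPK1IP1L and 0.677 for TBL1X) and with only the libraries compared (0.0871 for MAPK1IP1L and 0.113 for TBL1X), and that for ANKRD11 without the filter (0.0643) and with GC-corrected offsets (0.116). SLC1A4 lost its call without the filter (0.163) and with only the libraries compared (0.0871). HERPUD1 lost its call without the filter (0.0643) and DDIT4 with limma-voom (0.262). EIF5 (-1.60) and NDUFB9 (-1.55) were lower with HF in GCN2 KO cells, while their azaC and HF levels in AAVS1 cells differed little. What lies behind these differences was not tested.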

How the results depend on the processing

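Of 63 named genes called between azaC and HF, 27 were called under every alternative, among them SESN2, TRIB3, SLC7A11, HSPA8, DNAJB1, HMGCS1 and POLR2A. Some of the others lost the call under other tools or settings too, not only without single libraries. EIF2S2 did so without the filter (adjusted p = 0.659), with GC-corrected offsets (0.0902) and with only the libraries compared (0.184). Among those lost with limma-voom were HSPA1A (0.0931), FAM129A (0.329) and GRWD1 (0.0574). For azaC against HF the count of 110 became 182 with DESeq2, 254 with the replicate block, 250 with the block and GC-corrected offsets, and 622 with the block in the 6 libraries alone, an alternative chosen after seeing the data. With the block, among the named genes, SYCP2L (adjusted p = 0.0465), LMO4 (0.0255), EPRS1 (0.0482) and MAPK1IP1L (0.0393) were also called for HF against untreated cells. Beside these and the calls given with the results, the block changed no other call of a named gene in the 3 paired comparisons. Other settings gave 93 to 108, and leaving out 1 library gave 51 to 116. For azaC against untreated cells the 13 became 30 without the filter, 4 with only the libraries compared, 4 with these and the block, and 9 to 22 without 1 library. For HF against untreated cells the 171 became 377 with the block, 442 with the block and GC-corrected offsets, 68 with only the libraries compared, 84 with these and the block, and 101 to 193 without 1 library. For AAVS1 minus RNF25 KO the 1 became 8 without the filter, 3 with DESeq2, limma-voom, the block or the block and GC-corrected offsets, 4 with only the libraries compared, with or without the block, and stayed 1 without any 1 library. For AAVS1 minus GCN2 KO the 15 became 33 with DESeq2, 33 with the block, 36 with the block and GC-corrected offsets, 45 with these libraries alone and the block, and 6 to 18 without 1 library. Among named genes that gained this call with the block, TXNIP had a positive difference (1.77, edgeR adjusted p = 0.0143). TSC22D3, SESN2, STC2, SLC7A1, MTHFD2, GAS5 and SNHG12 gained it with negative differences. For these 2 interactions the numbers pair most but not all of the libraries: 12 of 18 and 13 of 18 same-numbered pairs correlated over 0.1 (lowest -0.219 and -0.00721). Differences that were not called changed sign for ATF4 (0.017 without azaC replicate 1 and without azaC replicate 2, 0.127 without HF replicate 3, lowest -0.196), JUN (-0.051 without HF replicate 2, highest 0.833) and MYC (-1.554 without azaC replicate 2, highest 1.616). The cause was not tested. The median over all genes lay between -0.011 and 0.001. The median of 34 to 50 counts per tested gene limits the precision for genes of few counts.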

Other observations

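MT-TP, a mitochondrial transfer RNA gene outside the lists, had 6099, 5449 and 6974 CPM with azaC, 3496, 3175 and 4416 CPM with HF and 9741, 8558 and 10570 CPM in untreated cells. Its difference of azaC minus HF was 0.74 (edgeR, adjusted p = 0.0452), and the 3 groups did not overlap. How this call fared under the alternatives was not examined. The strand setting of the counting is not given in the sources used here, so reads of overlapping genes could enter the count. Called with azaC against untreated cells were also KRI1, a member of the ribosome biogenesis list (1.30, adjusted p = 0.012), and, outside the lists, AC016831.5 (2.93, adjusted p = 0.00262) and LINC00662, a long noncoding RNA (1.29, adjusted p = 0.0492). VEGFA, an angiogenic growth factor and known ISR target, had 21.1, 32.8 and 30.7 CPM with azaC and 69.1, 66.5 and 48.8 CPM with HF. These libraries did not overlap, and the difference of -1.11 was not called (adjusted p = 0.0946).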
